A study of Mus musculus with 12 samples.

Results

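The NKR-P1 receptors are C-type lectin-like proteins of natural killer cells encoded by the Klrb1 genes, and 4 of them are described here: Klrb1a, Klrb1b, Klrb1c and Klrb1f. Every probe that the array's annotation gives to these genes was taken, with no use of its signal. That gave 10 probes of 45274 with values: 1 for Klrb1a, 5 for Klrb1b, 1 for Klrb1c and 3 for Klrb1f. Of these, 6 were detected often enough to be tested, at least 1 for each gene, among 13571 tested probes of 8100 genes. No probe is annotated to the related genes Klrb1 (NKR-P1G) and Klrb1-ps1 (0 probes each), and they were not analysed here. The Klrb1 genes are related copies and the probe sequences were not used here, so whether a probe also reads another copy is uncertain.

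Expression was measured on Illumina bead arrays in 12 samples of mouse lymphocytes, 4 in each of 3 groups. ITNK cells, a T-to-NK product, were derived in vitro from DN3 thymocytes, LAK cells are natural killer cells expanded in IL-2, and DN3 cells are the parental T cell precursors, CD4- CD8- thymocytes at the third stage of that series. The labels give all 12 samples the same treatment text: thymocytes or splenocytes with Cre-ERT2 (a tamoxifen-activated recombinase) and Bcl11b flox/flox received 1 µM 4-hydroxytamoxifen for 48 h. DN3 cells of Bcl11b CKO/CKO and Bcl11b CKO/+ genotype were then sorted and grown with 100 ng/ml IL-2 on OP9-DL1 stroma, a bone marrow line that presents a Notch ligand, until 14 days after the treatment. A further passage has splenic cells enriched with an NK isolation kit and expanded in IL-2. The labels do not say which steps or which of these genotypes apply to the LAK and DN3 arrays, nor whether DN3 RNA came from fresh or cultured cells. The strain labels read C57B6 for ITNK, C57B8 for LAK and C57B7 for DN3, and whether strain differed cannot be told from them. Since no label ties an array to its own animal or culture, the spread behind the p-values is that between these samples and may be technical only.

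NKR-P1 receptors are type II membrane proteins that natural killer cells and some T cells carry as activating and inhibitory forms. Their ligands belong to the Clec2 (Clr) family, whose genes lie among the receptor genes in the natural killer gene complex, so that receptor and ligand are inherited together. Klrb1c encodes NK1.1, the antigen long used to identify natural killer cells in C57BL/6 mice, which signals through the adaptor Fcer1g. Klrb1f encodes an activating receptor that binds Clec2i. Klrb1b encodes the inhibitory form, which binds Clec2d and recruits the phosphatase Ptpn6 (SHP-1). Klrb1a is placed with the activating members by its sequence.

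In the RefSeq gene table of GRCm38.p6 the 4 genes lie on chromosome 6 in the order Klrb1a, Klrb1c, Klrb1b and Klrb1f. Clec2h and Klrb1 lie between Klrb1a and Klrb1c, and BC035044, Clec2i, Clec2g and Clec2f between Klrb1b and Klrb1f. The 250 bases before a start annotated for each gene are shown because they bear on how alike these copies are at their starts. They come from RefSeq on GRCm38.p6, read 5′ to 3′ on the strand of the gene. Capitals mark the letters TGTGGT (the core bound by RUNX factors) and GGTGTG (the core bound by T-box factors), searched on both strands. For Klrb1b the first of its 2 listed starts was taken. For Klrb1f the listed start lies inside the span of the gene in the RefSeq table, which begins further upstream, so that the end of its window overlaps the gene.
Klrb1a promoter: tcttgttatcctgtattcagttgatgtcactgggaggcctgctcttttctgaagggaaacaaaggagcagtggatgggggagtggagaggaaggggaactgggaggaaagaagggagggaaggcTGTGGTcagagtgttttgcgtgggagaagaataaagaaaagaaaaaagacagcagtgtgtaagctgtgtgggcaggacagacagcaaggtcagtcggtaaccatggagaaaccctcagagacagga
Klrb1c promoter: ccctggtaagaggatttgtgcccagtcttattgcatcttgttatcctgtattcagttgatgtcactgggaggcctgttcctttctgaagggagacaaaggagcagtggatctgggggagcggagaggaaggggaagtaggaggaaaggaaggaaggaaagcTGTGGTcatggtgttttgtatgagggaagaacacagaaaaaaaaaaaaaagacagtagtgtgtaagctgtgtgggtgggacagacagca
Klrb1b promoter: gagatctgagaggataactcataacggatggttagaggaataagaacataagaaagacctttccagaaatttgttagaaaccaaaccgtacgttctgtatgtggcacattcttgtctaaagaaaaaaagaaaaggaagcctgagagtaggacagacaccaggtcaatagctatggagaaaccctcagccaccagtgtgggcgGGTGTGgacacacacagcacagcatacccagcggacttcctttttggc
Klrb1f promoter: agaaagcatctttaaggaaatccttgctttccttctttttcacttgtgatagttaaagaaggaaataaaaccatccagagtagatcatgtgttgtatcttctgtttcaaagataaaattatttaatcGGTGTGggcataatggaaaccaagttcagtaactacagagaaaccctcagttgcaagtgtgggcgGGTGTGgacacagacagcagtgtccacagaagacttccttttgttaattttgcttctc

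These windows are chr6:128622935-128623184 (minus strand) for Klrb1a, chr6:128788642-128788891 (minus strand) for Klrb1c, chr6:128826316-128826565 (minus strand) for Klrb1b and chr6:129045651-129045900 (plus strand) for Klrb1f. Klrb1a and Klrb1c aligned over 210 bases with 89.5% identity and shared a run of 41 bases. Klrb1b and Klrb1f aligned over 91 bases with 81.3% identity, around a shared run of 22 bases, agtgtgggcgggtgtggacaca. The other pairs aligned over 28 to 70 bases. A run of 13 bases, gagaaaccctcag, stands in all 4 genes, beginning at position -21 of Klrb1a, -76 of Klrb1b and -86 of Klrb1f, counted from the annotated start, and beyond the start, at position 19, in Klrb1c. TGTGGT was found in Klrb1a and Klrb1c, once each, and in 14.2% of 27025 promoters of this length. GGTGTG was found in Klrb1b (1 match) and Klrb1f (2 matches), and in 16.2% of all promoters. The ETS core GGAAGT stood in 3 of the 4 promoters (20.0% of all), the E-box CANNTG in 3 (66.0%) and the STAT motif TTCNNNGAA in 0 (7.18%). TGTGGT and GGTGTG can overlap by sharing letters, but no motif matches overlapped in these 4 windows. A match is a description of the letters and does not show that a factor binds.

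Each array detected 26.1% to 29.0% of probes, detection meaning a detection p under 0.01. The median raw signal was 71.4 to 75.3 on slide 1, which held the LAK arrays and ITNK 1 and 2, and 58.9 to 63.3 on slide 2, which held ITNK 3 and 4 and the DN3 arrays. Raw signals should therefore be compared within a slide, and the normalized log2 values, in which background was subtracted and arrays were brought to one distribution, were used for tests. Bcl11b, the gene deleted by the Cre, differed by -3.16 on the log2 scale in ITNK against DN3 (SE 0.20, limma adjusted p = 1.69e-08). Whether its probe lies in the deleted part is not given in the sources used here, so it does not check the deletion. Among 9 natural killer markers, Ncr1 was detected on 0 arrays, those of LAK included, and Itga2 (CD49b) on 0 LAK arrays. All 10 tested stromal markers were detected on 0 LAK arrays. Their summed normalized level was 1290 to 1985 in ITNK, 212 to 218 in LAK and 1512 to 4741 in DN3.

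Across the 10 probes, ITNK arrays gave 13 detections of 40 possible, LAK arrays 24 and DN3 arrays 2. Each LAK array detected 6 of the 10 probes. ITNK 1 detected 2, ITNK 2 detected 3 and ITNK 3 and 4 detected 4 each. DN3 2 detected 2, of Klrb1a and Klrb1f, and the other DN3 arrays 0 each. In ITNK against DN3, Klrb1f and Klrb1c rose and Klrb1a and Klrb1b did not pass, which makes 2 of 4 genes higher where 23.3% of 8100 genes were (27.9% were lower). In ITNK against LAK all 4 genes were lower, where 15.4% of all genes were (17.6% were higher). In LAK against DN3 all 4 were higher, where 28.6% of all genes were (31.8% were lower). The 3 Klrb1b probes would not have reached the 4 detected arrays needed for testing without the LAK arrays. The filter therefore favoured their difference from LAK, and counts and medians that include them are a description only. The medians over the 4 genes were 0.80, -1.80 and 3.39 on the log2 scale in these comparisons, beside -0.04, -0.01 and -0.02 over all genes. A bulk sample cannot tell fewer cells that express a receptor from less RNA of it per cell.

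**Figure D1:**
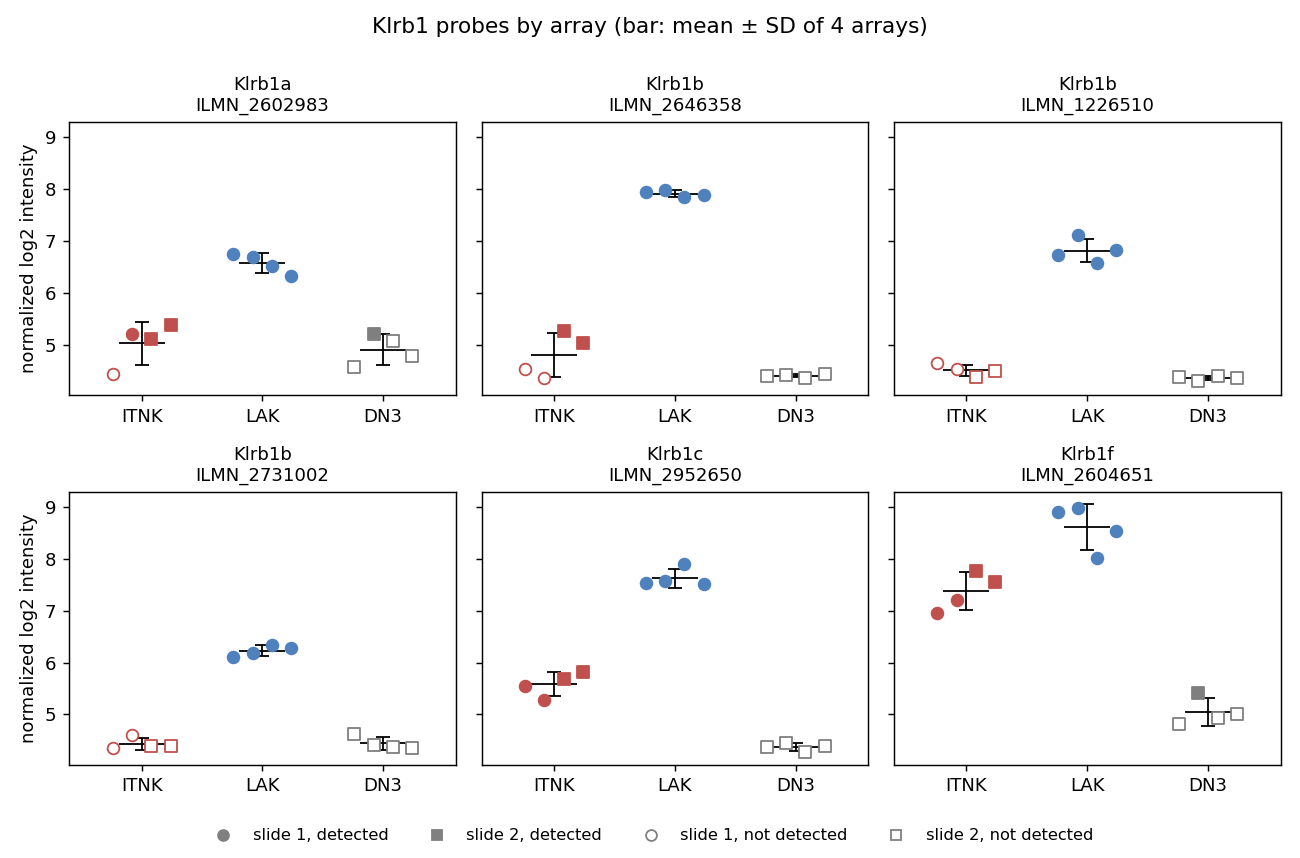
Normalized log2 intensity of the 6 tested Klrb1 probes on each array, with ITNK, LAK and DN3 along the horizontal axis and the mean ± SD of 4 arrays as bars. Filled symbols were detected, open symbols were not, circles are slide 1 and squares slide 2. LAK arrays are above all others in every panel, and ITNK arrays are clear of DN3 arrays for Klrb1c and Klrb1f.

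Klrb1f was detected on all ITNK and all LAK arrays and on 1 of 4 DN3 arrays, and it rose in ITNK against DN3. Its detected probe, ILMN_2604651, gave raw signals of 180.1, 203.8, 275.3 and 242.9 on ITNK 1 to 4. On LAK 1 to 4 it gave 717.2, 670.8, 299.5 and 445.7, and on DN3 1 to 4 it gave 68.4, 78.7, 68.3 and 71.0. Every ITNK array lay above every DN3 array and below every LAK array, and on the normalized scale the lowest LAK array, LAK 3 at 8.01, was near the highest ITNK array, ITNK 3 at 7.77. Normalized, Klrb1f was at 7.37 ± 0.37 in ITNK, 8.61 ± 0.45 in LAK and 5.05 ± 0.26 in DN3 (log2, SD, n = 4 each). ITNK minus DN3 was 2.32, with DN3 mostly not above background (SE 0.22, limma adjusted p = 1.13e-06). Against LAK it differed by -1.24 (SE 0.22, adjusted p = 6.08e-04), and LAK exceeded DN3 by 3.56 (adjusted p = 5.50e-09). The other 2 Klrb1f probes were detected on 0 arrays, with raw signals of 57.1 to 74.4 in ITNK, 66.4 to 76.6 in LAK and 52.4 to 63.4 in DN3.

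Klrb1c, the NK1.1 gene, was detected on all ITNK and all LAK arrays and on no DN3 array (0 of 4). Its probe, ILMN_2952650, gave raw signals of 100.5, 91.8, 96.4 and 101.6 on ITNK 1 to 4. On LAK 1 to 4 it gave 305.2, 287.2, 282.5 and 242.2, and on DN3 1 to 4 it gave 56.7, 57.7, 50.3 and 56.3. The 3 groups did not overlap, and ITNK signals stood closer to DN3 than to LAK. Normalized values were 5.58 ± 0.23 in ITNK, 7.63 ± 0.18 in LAK and 4.37 ± 0.08 in DN3 (log2, SD, n = 4 each). DN3 gave only a background level. ITNK minus DN3 was 1.21 (limma adjusted p = 2.76e-06), which was 2.24-fold over a floor for DN3. LAK exceeded DN3 by 3.26 (adjusted p = 4.39e-11), which was 9.28-fold over the floor. Such folds divide the brighter group's mean by a floor for the dim group. On each array the floor is the dimmest detected probe of that array or the probe itself, whichever was higher. They are not lower bounds, since undetected values can lie above the dimmest detected probe. On DN3 3 that probe stood at 4.28 and the undetected Klrb1a probe at 5.07. Against LAK, ITNK differed by -2.05 (SE 0.13, 4.14-fold lower, adjusted p = 1.56e-08).

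Klrb1a gave no difference between ITNK and DN3 beyond the spread of the arrays. Its probe, ILMN_2602983, had raw signals of 68.8, 89.9, 78.9 and 85.4 on ITNK 1 to 4, 199.9, 179.7, 142.0 and 134.6 on LAK 1 to 4 and 62.8, 73.7, 70.5 and 66.1 on DN3 1 to 4. It was detected on 3 ITNK arrays, all 4 LAK arrays and 1 DN3 array, and the ITNK and DN3 ranges overlapped. The normalized values were 5.03 ± 0.42 in ITNK, 6.57 ± 0.19 in LAK and 4.91 ± 0.29 in DN3 (log2, SD, n = 4 each). ITNK minus DN3 was 0.12 (95% confidence interval -0.29 to 0.54, limma adjusted p = 0.626), an interval that leaves room for a rise of up to 0.54. ITNK minus LAK was -1.54 (SE 0.19, adjusted p = 2.66e-05), and LAK exceeded DN3 by 1.67 (adjusted p = 4.03e-06).

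Klrb1b, the inhibitory member, was lower in ITNK than in LAK by all 3 of its tested probes, which were kept only through the LAK arrays. The filter favoured their differences from LAK, so the p-values against LAK are a description. The brightest Klrb1b probe, ILMN_2646358, gave raw signals of 72.6, 66.4, 82.7 and 76.2 on ITNK 1 to 4. On LAK 1 to 4 it gave 389.7, 365.4, 274.1 and 299.7, and on DN3 1 to 4 it gave 57.8, 56.6, 55.1 and 58.0. It was detected on ITNK 3 and 4 only among the ITNK arrays, on all LAK arrays and on 0 DN3 arrays. Normalized values were 4.80 ± 0.42 in ITNK, 7.92 ± 0.06 in LAK and 4.40 ± 0.03 in DN3 (log2, SD, n = 4 each). ITNK minus LAK was -3.11, with ITNK detected on 2 of 4 arrays (SE 0.16, limma adjusted p = 2.31e-09). LAK exceeded DN3 by 3.51 (adjusted p = 2.18e-10), which was 11.1-fold over the floor.

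The Klrb1b difference between ITNK and DN3 was 0.40 (SE 0.16, limma adjusted p = 0.0523) and depended on how the 2 slides and the arrays were handled. It passed with slide as a fixed block (0.75, adjusted p = 1.24e-04) and within slide 2 (0.75, adjusted p = 0.00103). It also passed without ITNK 1 (0.49, adjusted p = 0.0282) and without ITNK 2 (0.54, adjusted p = 0.00764), the 2 ITNK arrays of slide 1. Without ITNK 3 it was 0.24 (adjusted p = 0.171) and without ITNK 4 it was 0.32 (adjusted p = 0.144). Of the other Klrb1b probes, ILMN_1226510 and ILMN_2731002 were detected on all LAK arrays and on 0 ITNK and 0 DN3 arrays. ITNK minus LAK was -2.31 and -1.79 for them, with ITNK at background (adjusted p = 1.55e-09 and 5.95e-09). Without background correction it was -1.09 and -0.79. Against DN3 both groups were at background, and these 2 probes differed by 0.15 and -0.0058 (adjusted p = 0.296 and 0.969). The remaining 2 Klrb1b probes were detected on 0 arrays, with raw signals of 51.8 to 66.1 in ITNK, 60.2 to 77.0 in LAK and 52.0 to 57.6 in DN3.

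**Figure D2:**
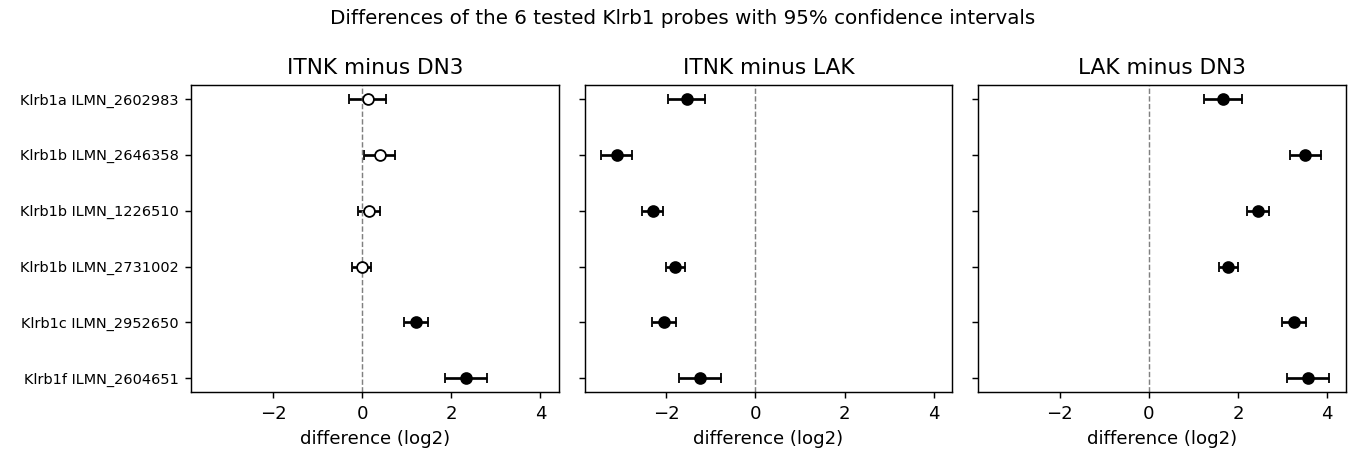
Log2 difference of the 6 tested Klrb1 probes in each comparison, with its 95% confidence interval along the horizontal axis. Filled points passed at an adjusted p under 0.05. In ITNK minus DN3 the Klrb1c and Klrb1f probes passed, and in the comparisons with LAK all 6 did.

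Counted by probe, 2 of the 6 tested probes rose in ITNK against DN3, where 23.3% of 13571 probes did. All 6 were lower in ITNK than in LAK, where 15.5% of probes were, and all 6 were higher in LAK than in DN3, where 29.8% were. Of these 6, the 3 Klrb1b probes were kept through the LAK arrays, so the counts against LAK and the separations from LAK that follow are a description and support nothing about the family. On the normalized scale the ITNK and DN3 arrays did not overlap in 2 of the 6, against 46% of all probes. ITNK and LAK arrays did not overlap in all 6, against 30.3%, and LAK and DN3 arrays in all 6, against 54.9%. Without ITNK 1 or any other single array, no call of Klrb1c, Klrb1f or Klrb1a changed in any comparison.

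Among the 4 ITNK arrays, the brightest probe of each gene was higher on the slide 2 arrays. The means on ITNK 1 and 2 against those on ITNK 3 and 4 were 4.81 and 5.25 for Klrb1a, 4.45 and 5.15 for Klrb1b, 5.41 and 5.75 for Klrb1c and 7.08 and 7.67 for Klrb1f (log2). The 2 other tested Klrb1b probes, both at background in ITNK, ran the other way, at 4.58 and 4.44 and at 4.48 and 4.39. Slide and sample cannot be told apart in pairs of 2 arrays, and this split was not tested. Within slide 2, ITNK exceeded DN3 by 1.38 for Klrb1c (adjusted p = 4.03e-05) and 2.62 for Klrb1f (adjusted p = 1.55e-05), and differed by 0.34 for Klrb1a (adjusted p = 0.177). Within slide 1, ITNK minus LAK was -1.76 for Klrb1a, -3.47 for Klrb1b, -2.22 for Klrb1c and -1.53 for Klrb1f (adjusted p = 7.86e-04, 8.12e-07, 3.00e-05 and 0.00398). LAK and DN3 shared no slide, and their difference with slide as a block, which rests on the ITNK arrays as a bridge, was 2.10, 4.22, 3.59 and 4.15 in the same order of genes.

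Sizes depended on the background step more than calls did. Without background correction, ITNK minus LAK was -0.74 for Klrb1a, -1.77 for Klrb1b, -1.23 for Klrb1c and -0.99 for Klrb1f, and LAK minus DN3 was 0.77, 1.94, 1.76 and 2.24 in the same order of genes. All of these kept their calls, and ITNK minus DN3 was 0.52 for Klrb1c and 1.25 for Klrb1f, which passed as well.

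**Figure D3:**
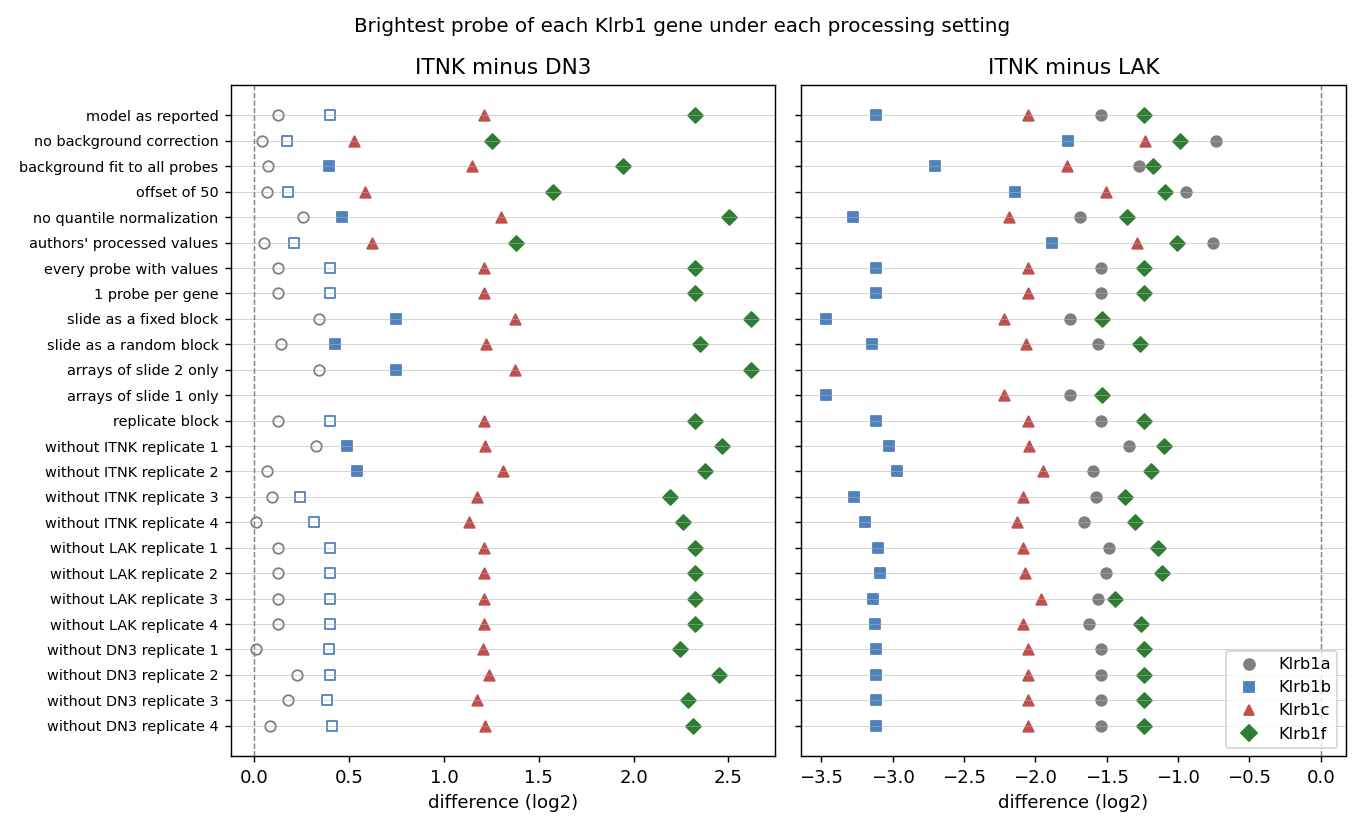
Log2 difference of the brightest probe of each Klrb1 gene in ITNK minus DN3 and in ITNK minus LAK, along the horizontal axis, under each processing setting, down the page. Filled symbols passed at an adjusted p under 0.05. Klrb1c and Klrb1f passed in every setting drawn, and for Klrb1b in ITNK minus DN3 the call changed between settings.

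How far the changes of the 4 genes differed was examined as the change of a gene minus the change of another, with an exact 2-sided permutation of the arrays (4 against 4, smallest possible p = 0.0286), in 18 comparisons chosen after the values were seen. The 12 that involve DN3 are not used, because Klrb1b and Klrb1c were detected on 0 DN3 arrays and Klrb1a and Klrb1f on 1, so that their changes are cut short at the background. In ITNK against LAK, the change of Klrb1b minus that of Klrb1c was -1.06 and minus that of Klrb1f was -1.87, and that of Klrb1a minus that of Klrb1b was 1.57. These 3 reached the smallest exact permutation p of 0.0286. The adjusted value of 0.0468 was taken over all 18, the 12 not used included, so no call is drawn from it. All 3 involve Klrb1b, whose tested probes were kept only through the LAK arrays. Klrb1a minus Klrb1c was 0.51, Klrb1a minus Klrb1f -0.30 and Klrb1c minus Klrb1f -0.81 (exact permutation p = 0.114, 0.257 and 0.0571). Klrb1b was detected on 2 and Klrb1a on 3 of the 4 ITNK arrays, so their falls may be understated. Klrb1b stands here by its brightest probe alone, which differed from LAK by -3.11. Its probes ILMN_1226510 and ILMN_2731002, not detected in ITNK, differed from LAK by -2.31 and -1.79. Klrb1c differed by -2.05, so the order of Klrb1b and Klrb1c depended on the probe used. Probes differ in how their signal follows RNA, so these tests compare probe readings and not the RNA of the genes.

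The genes whose brightest probes most resembled each member were found by Pearson correlation over the 12 arrays, which share the 3 groups, so that a high value mostly reflects a like pattern of group means. For Klrb1f these were Ggct (r = 0.993), Bin1 (0.985), Gabarapl1 (0.984), the homeobox factor Hhex (0.984) and the lectin-like receptor Klre1 (0.983). For Klrb1c they were Bspry (0.991), Tmem38b (0.991), Ctla2b (0.991), Dennd4a (0.990) and the metallothionein Mt1 (0.990). For Klrb1b they were Samd3 (0.994), Bcl2a1d (0.992), the granzyme Gzme (0.991), Tbc1d2b (0.990) and the Ly49 receptor Klra10 (0.988). For Klrb1a they were Arid5b (0.977), Ociad1 (0.971), Cables1 (0.968), Sorl1 (0.964) and Dhdh (0.962). Among the members themselves r over the 12 arrays was 0.957 for Klrb1b with Klrb1c and 0.921 for Klrb1c with Klrb1f, and 0.788 for Klrb1a with Klrb1f.

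Other lectin-like receptors of natural killer cells also rose in ITNK against DN3, 5 of 7 tested with 0 lower, where 23.3% of all genes rose. Their median difference was 1.91. Klrd1, the CD94 chain, rose by 4.39 and Klre1 by 3.61, the activation marker Cd69 by 2.24, Klrk1 (NKG2D) by 1.91 and Klri1 by 0.94. Klrk1 and Klri1 were not detected in DN3, and over the floor they stood 3.63-fold and 1.87-fold higher in ITNK. Klri2 differed by 0.06, with neither group detected, and Klrg1, an inhibitory receptor of mature cells, by 0.38 (limma adjusted p = 0.804 and 0.189). Against LAK, 5 of the 7 were lower in ITNK, where 15.4% of all genes were: Klrg1 by -4.85, Klre1 by -3.01, Klri2 by -2.30, Klri1 by -1.61 and Klrk1 by -1.14. Klri2 was detected on 0 and Klrg1 on 1 of the 4 ITNK arrays, and both on 0 DN3 arrays. Both were kept only through the LAK arrays. The filter favoured their differences from LAK, and counts and medians against LAK that include them are a description only. Klrd1 and Cd69 differed from LAK by -0.12 and 0.10 (adjusted p = 0.692 and 0.783). Klrc1, Klrc2 and Klrc3 were detected on 0 arrays. In LAK against DN3 all 7 were higher, where 28.6% of all genes were, with a median of 3.05.

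Of 12 tested signalling partners of these receptors, 4 rose and 4 fell in ITNK against DN3 (median 0.07). Of all genes 23.3% were higher and 27.9% lower. Fcer1g, the adaptor that couples to NK1.1, was at 12.10 in ITNK, 12.52 in LAK and 6.19 in DN3 (mean log2 of 4 arrays). It rose by 5.91 in ITNK against DN3 (adjusted p = 8.22e-10) and differed by -0.42 from LAK (adjusted p = 0.252). The related adaptor Tyrobp (DAP12) rose by 5.20 (35.0-fold over the floor), the phospholipase Plcg2 by 2.61 and the phosphatase Inpp5d (SHIP1) by 1.27. The adaptors Lcp2 (SLP-76) and Lat fell by 1.13 and 0.91, the exchange factor Vav1 by 0.42 and the phosphatase Ptpn11 (SHP-2) by 0.26. Ptpn6, the phosphatase that Klrb1b recruits, differed by -0.0037 from DN3 and by -0.09 from LAK (adjusted p = 0.986 and 0.691). Against LAK, Lat (3.19) and Cd247 (0.92) were higher in ITNK, and Tyrobp (-1.07), Ptpn11 (-0.48) and Inpp5d (-0.34) were lower. In LAK against DN3, 5 rose and 4 fell, where 28.6% of all genes were higher and 31.8% lower. Fcer1g was higher by 6.33 and Lat differed by -4.10.

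Of the Clec2 ligand genes, 2 were tested and neither passed in ITNK. Clec2d, which encodes the ligand of the Klrb1b product, was detected on all arrays, at 9.52 in ITNK, 9.80 in LAK and 9.86 in DN3 (mean log2 of 4 arrays). ITNK minus DN3 was -0.34 (limma adjusted p = 0.0627) and ITNK minus LAK -0.28 (adjusted p = 0.149). Clec2i, which encodes a ligand of the Klrb1f product, was at 6.89 in ITNK, 6.68 in LAK and 7.25 in DN3. It was lower in LAK than in DN3 by -0.58 (adjusted p = 0.00517), while ITNK minus DN3 was -0.37 (adjusted p = 0.0625). ITNK minus LAK was 0.21 for Clec2i (adjusted p = 0.333). Clec2e and Clec2g were detected on 0 arrays. Stromal cells can also express Clec2 genes, and their part in these levels was not tested.

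**Figure D4:**
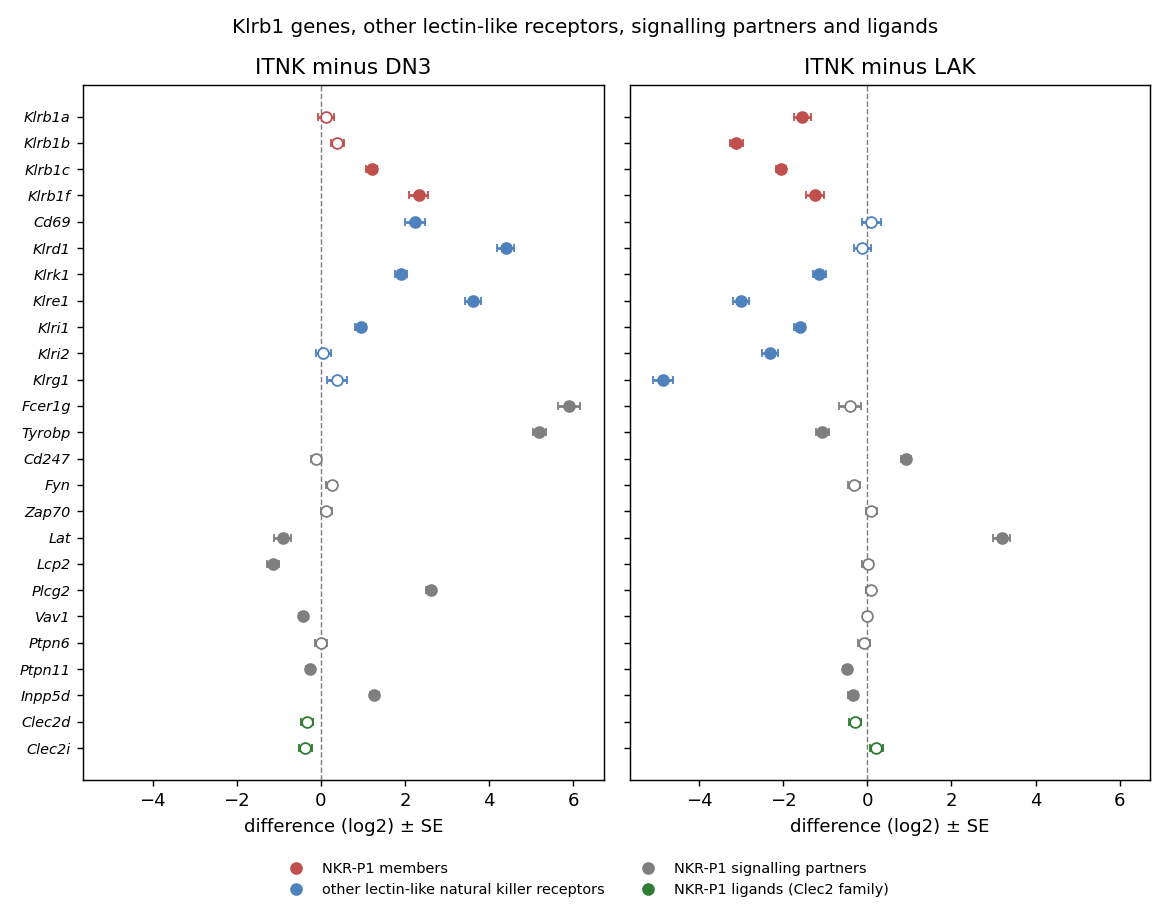
Log2 difference ± SE of the Klrb1 genes, the other lectin-like receptors, the signalling partners and the Clec2 ligands, along the horizontal axis, in ITNK minus DN3 and ITNK minus LAK. Each gene is its brightest tested probe, and filled points passed at an adjusted p under 0.05. Fcer1g and Tyrobp have the largest rises drawn, and of the Klrb1 genes Klrb1a and Klrb1b did not pass in ITNK minus DN3.

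Some markers of cell types also differed between the groups. Of all genes, 23.3% were higher and 27.9% lower in ITNK against DN3, and 17.6% were higher in ITNK than in LAK. Of 7 tested natural killer markers all 7 rose in ITNK against DN3. Itga2 was kept only through the ITNK arrays, so the filter favoured its rise and this count is a description only. The summed normalized level of the 7 was 14012 to 15664 in ITNK, 21825 to 26231 in LAK and 939 to 1595 in DN3. Of 6 tested T cell markers 4 fell in ITNK against DN3 and all 6 were higher in ITNK than in LAK (summed level 9072 to 12437 in ITNK, 483 to 1051 in LAK and 24488 to 27799 in DN3). Gamma-delta T cells and NKT cells can also carry NK1.1. Of their markers, Cd163l1 rose by 0.84 and Blk fell by 1.15 in ITNK against DN3, and Zbtb16, Sox13 and Il23r were detected on 0 arrays. The summed level of Cd163l1 and Blk was 2815 to 3218 in ITNK, 42.4 to 57.8 in LAK and 1511 to 2004 in DN3. In ITNK and DN3 this sum mostly followed Cd163l1, at 11.50 and 10.66, with Blk at 6.05 and 7.20 (mean log2). Of the 10 stromal markers 5 fell and 2 rose in ITNK against DN3. Of those that fell, Col1a1, Sparc and Fn1 would not have been tested without the DN3 arrays. Of those that rose, Timp3 would not have been tested without the ITNK arrays. The filter favoured these differences, so the stromal counts are a description only. In the same comparison 0 of 2 myeloid markers passed, and Cd79b, of B cells, was lower (-0.50). The part of these cells in the Klrb1 values was not tested.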

How the data were processed

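Per the file headers, the authors deposited linear bead intensity for each probe, not normalized, and a detection fraction from 0 to 1, of which 1 minus the value is the detection p. They also deposited processed log2 values whose method is not stated and whose scale near background differs from that of the signals. These served as an alternative.

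Background was corrected with limma 3.58.1 in R 4.3.3 (nec, normal-exponential, background from the detection values, offset 16), followed by quantile normalization on the log2 scale. Of 45281 probes 7 held no values. Probes with a detection p under 0.01 on at least 4 of 12 arrays were kept, 13571 in all. Symbols came from the platform annotation (34880 probes with 1 symbol, 18 with several, 10376 with none), and 34802 of 34898 Entrez numbers matched the RefSeq table. A gene was its brightest kept probe, which gave 8100 genes. The 3 groups were fitted in 1 limma model over all 12 arrays, with 2-sided moderated tests and Benjamini-Hochberg adjustment over 13571 probes, passing at an adjusted p under 0.05. The model was tested on simulated data. The number of arrays limits the precision. Replicate numbers were not used to pair samples. Deviations of same-numbered arrays correlated at -0.32 to 0.20, above 0.1 in 3 of 12 pairs. Differently numbered arrays of different groups were above 0.1 in 9 of 36 pairs. With few arrays a group this cannot exclude a pairing. Promoter windows were aligned with Biopython 1.88.

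The members, lists and tests were chosen with earlier results of these data known. All 10 member probes are described. For each gene the 5 most correlated genes are named, and of the lists the genes past the test, up to 8 a list and comparison, with a few others chosen after their values were seen.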

Additional observations from a re-analysis of the deposited data

Results flagged for a closer look

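In groups of 4 arrays, an array was examined when its gap to the nearest of the others, as a share of the group's range, was over Dixon's critical value, which chance gives in about 1 of 20 groups. Of 18 groups of tested Klrb1 probes, 2 met this. LAK 3 stood at 7.90 for Klrb1c, above the other LAK arrays at 7.52 to 7.57 (log2), while for Klrb1f it was the lowest LAK array. DN3 1 stood at 4.62 for the Klrb1b probe ILMN_2731002, above the other DN3 arrays at 4.36 to 4.40, and was not detected there.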

How the results depend on the processing

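Of 186 values of the 6 tested Klrb1 probes under other settings, 180 kept their direction and their side of the threshold, as did 210 of 216 with an array left out. The exceptions were 2 Klrb1b probes in ITNK against DN3. For the brightest one the difference of 0.40 passed with the background fit to all probes (0.39), without quantile normalization (0.46), with slide as a random block (0.43) and with slide as a fixed block or within slide 2 (0.75 each), and it ranged from 0.24 to 0.54 with an array left out. For ILMN_2731002, at background in both groups, it turned to 0.041 without quantile normalization and ranged from -0.061 to 0.055 with an array left out. Sizes depended on the background step: for Klrb1c and Klrb1f in ITNK against DN3 they were 0.52 and 1.25 without background correction, 0.59 and 1.58 with an offset of 50 and 0.62 and 1.38 with the authors' values, against 1.21 and 2.32. In ITNK against LAK, Klrb1a minus Klrb1f turned to 0.25 without background correction and with the authors' values, and to 0.14 with an offset of 50, against -0.30. Klrb1a minus Klrb1c was 0.50 without background correction and 0.56 with an offset of 50 (exact permutation, adjusted p = 0.0429 each), against 0.51 (adjusted p = 0.158). These adjusted values also count the comparisons with DN3 that are not used. The cause was not tested. With the replicate number as a block no Klrb1 call changed (Klrb1b 0.40, adjusted p = 0.0657). With 1 probe per gene, where fewer features were tested, 4183, 2727 and 4904 genes passed in ITNK against DN3, ITNK against LAK and LAK against DN3, against 6738, 4307 and 8086 probes. With probes detected on all 12 arrays 2713 of 9213 passed in ITNK against LAK, and no Klrb1 probe was left to test. Levels in DN3 are limited by signal over background.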
